A study of Mus musculus with 6 samples.

Results

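Meg3, Malat1, Snhg11, Miat, Rian and Neat1 are long noncoding RNAs known to be retained largely in the nucleus, and they were followed here through every cell cluster of the adult mouse olfactory bulb. The members were chosen by name, and 5 of the 6 listed genes had a row among the 18560 genes of the count table; Rian had none and is not analysed here. Single cells were captured from dissociated bulbs of C57BL/6NJ mice aged 14 weeks, in 6 libraries, 2 for each of 3 groups. Control mice had no manipulation according to the labels, although the study also describes the control tissue as the open side of occluded mice. In the naris occluded group a nostril was plugged for 6 weeks, which removes odour input to the bulb on that side. In the trained group water-deprived mice learned odour discriminations for a water reward over 6 weeks, so that training and water restriction cannot be told apart. Each library was a pool of mice, male in replicate 1 and female in replicate 2, and p-values below measure the spread between these pools.

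Malat1 is a core RNA of nuclear speckles, the compartments where splicing factors are stored, and its mature 3′ end is not a poly(A) tail. Neat1, its neighbour on chromosome 19, is the scaffold on which paraspeckles form. Meg3 is the maternally expressed RNA of the imprinted Dlk1-Dio3 locus and is widely used as a mark of neurons, Snhg11 is a neuronal host of small nucleolar RNAs, and Miat, also called Gomafu, marks young and some mature neurons. Where in the cell each RNA lay was not measured.

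In the RefSeq annotation of build GRCm38.p6, Meg3 lies on chromosome 12 from 109540996 to 109571729 and the unmeasured Rian follows it from 109603945 to 109661716. Malat1 spans 5795690 to 5802672 and Neat1 5824708 to 5845480 on chromosome 19, Snhg11 spans 158375713 to 158386474 on chromosome 2, and Miat spans 112213228 to 112228948 on chromosome 5. The annotation gives all 6 as long noncoding RNA genes. A promoter window, from 250 bases before to 50 bases after a start site, was matched for 5 of the 6 listed genes and none was found for Neat1. The windows of the 3 most abundant members are shown, since these genes carry the differences between cell types described below, with the capitals marking matches to the motifs searched.
Meg3, chr12:109540746-109541045, plus strand: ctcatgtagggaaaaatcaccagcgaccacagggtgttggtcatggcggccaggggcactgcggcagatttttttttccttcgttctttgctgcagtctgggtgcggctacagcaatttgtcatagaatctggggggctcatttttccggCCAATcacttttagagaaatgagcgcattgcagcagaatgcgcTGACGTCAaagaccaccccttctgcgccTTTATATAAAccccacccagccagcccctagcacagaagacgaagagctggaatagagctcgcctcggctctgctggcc
Snhg11, chr2:158375463-158375762, plus strand: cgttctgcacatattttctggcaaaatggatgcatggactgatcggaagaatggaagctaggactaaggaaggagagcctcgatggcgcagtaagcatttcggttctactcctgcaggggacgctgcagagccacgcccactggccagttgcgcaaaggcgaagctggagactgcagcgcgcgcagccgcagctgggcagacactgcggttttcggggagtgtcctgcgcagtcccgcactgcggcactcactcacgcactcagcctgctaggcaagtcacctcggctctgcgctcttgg
Malat1, chr19:5802623-5802922, minus strand: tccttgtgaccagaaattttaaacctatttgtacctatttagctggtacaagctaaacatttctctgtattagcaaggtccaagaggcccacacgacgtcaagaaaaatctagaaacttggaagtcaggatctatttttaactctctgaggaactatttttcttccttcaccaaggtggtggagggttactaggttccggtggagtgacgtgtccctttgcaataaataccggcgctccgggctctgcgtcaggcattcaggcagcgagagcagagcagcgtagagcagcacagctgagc
The motifs searched on both strands were the TATA box (TATAAA), the CCAAT box, the cyclic AMP response element (TGACGTCA), the GC box (GGGCGG), the E box (CACGTG) and the site of NRF1. A second Meg3 window, at another start site from 109545148 to 109545447, held no match. The Meg3 window printed above held TATAAA beginning 25 bases before the start site on the plus strand, overlapping a match on the minus strand, CCAAT 100 bases before it and TGACGTCA 57 bases before it. Of 32851 promoter windows in the annotation, 13.6% held TATAAA, 37.4% CCAAT and 1.79% TGACGTCA. None of these letters occurred in the Snhg11 and Malat1 windows. The Snhg11 window had 60% G and C with 21 CG pairs, the printed Meg3 window 53.7% with 13, and the median window 52.7% with 7. Meg3 is also the host of microRNAs, whose seeds (bases 2 to 8) are in capitals; the microRNAs themselves were not measured.
mmu-miR-770-5p: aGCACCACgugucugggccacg
mmu-miR-770-3p: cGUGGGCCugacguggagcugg
mmu-miR-1906: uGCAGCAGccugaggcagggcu

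The libraries held between 6705 and 10570 cells and between 11841160 and 17065083 unique molecular identifiers (UMIs), each of which stands for 1 captured RNA molecule. Of 52549 barcodes, 51426 carried a deposited cluster, and the values below are over 21746 cells of 18 neuronal clusters and 28925 cells of 22 nonneuronal clusters. Median UMIs per cell ran from 1028 (trained replicate 1) to 1723.5 (naris occluded replicate 1), and the median mitochondrial share from 9.25% (naris occluded replicate 2) to 14.4% (trained replicate 1). There were 1461 cell barcodes that occurred in more than 1 library. The summed markers of each cell type were highest in a cluster of that name, apart from those of ensheathing cells, which were not. The cluster n13-AstrocyteLike, which the deposited annotation counts as neuronal, had 348 UMIs per 1000000 UMIs (CPM) of the astrocyte markers Gfap, Aqp4 and Slc6a11 together, against 4372 CPM in Astro1, and 1423 CPM of the neuron markers Snap25, Syt1 and Tubb3, against 4975 CPM in n12-GC-6. It is called below by its deposited name only.

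By UMIs, Malat1 was the most abundant RNA of the data set. It took 5.20% of all UMIs, rank 1 of all genes. Meg3 followed with 0.132% (rank 62) and Snhg11 with 0.0591% (rank 200). Neat1 was far rarer, with 0.0130% (rank 1099), and Miat was near the floor of the method, with 723 UMIs in all and 8.30 CPM (rank 10491). These levels were compared between genes as UMIs, without scaling to length. The mature 3′ end of Malat1 is not a poly(A) tail, and how its capture compared with that of the other RNAs was not tested.

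Malat1 was high in most clusters and very low in a few, and the few came from many cell types. Its level was 84368 ± 10668 CPM (SD, n = 6 libraries) in the astrocyte cluster Astro1 and 79665 ± 8014 CPM in OEC4, a cluster of olfactory ensheathing cells, the glia that wrap olfactory axons. The highest neuronal level was 76885 ± 7349 CPM in the granule cell cluster n03-GC-1. At the other end, olfactory sensory neurons (n01-OSNs) had 2030 ± 391 CPM, n13-AstrocyteLike 3955 ± 1436 CPM and red blood cells 4353 ± 2980 CPM, with MicroG3 at 4674 ± 2034 CPM and n14-GC-7 at 6777 ± 5737 CPM. Of all clusters n01-OSNs had the highest median mitochondrial share, at 39.0%, with a median of 808.5 UMIs per cell. Mitochondrial UMIs count in this CPM, and of nonmitochondrial UMIs alone its median Malat1 share was 0.177%. The sensory neurons were low in every library, at 2344 and 1337 CPM in control, 2299 and 2312 CPM in naris occluded and 1847 and 2041 CPM in trained libraries, and no library of Astro1 came near them, its lowest being 67996 CPM. The order was otherwise gradual, and 34 of the 39 neighbouring pairs of clusters differed by no more than the SD of their difference over libraries.

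**Figure D1:**
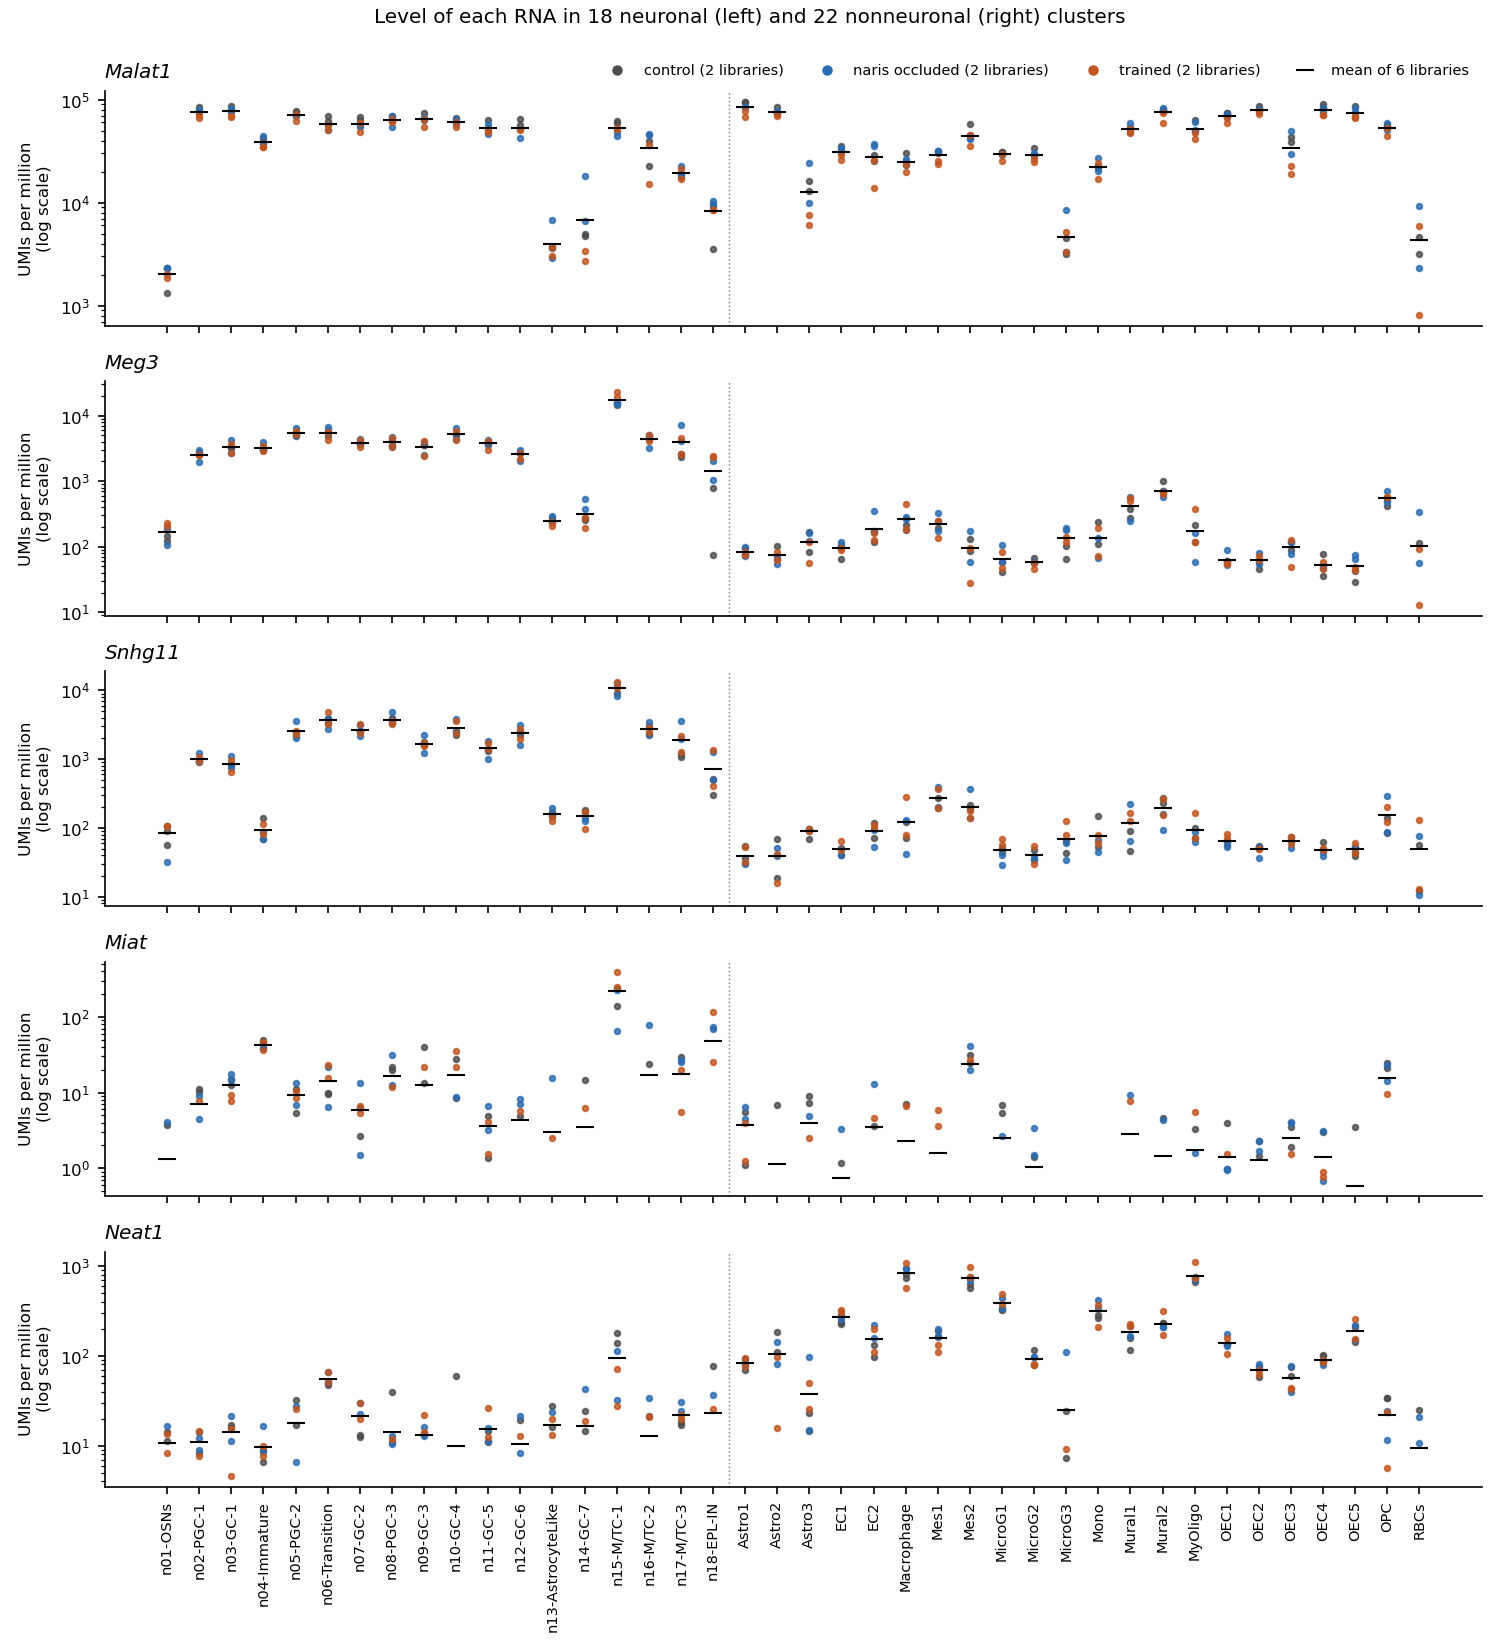
Level of each RNA in CPM (log axis) in every cluster, neuronal clusters left of the dotted line and nonneuronal clusters right of it; points are libraries coloured by group, bars the mean of 6 libraries, and libraries at 0 are not drawn. Malat1 is high across both classes apart from a few clusters such as n01-OSNs at 2030, Meg3 and Snhg11 are high in neuronal clusters with a peak in n15-M/TC-1, and Neat1 is high on the nonneuronal side.

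Clusters given the same cell type name differed widely in Malat1. Their numbers here are those of the deposited annotation, and for astrocytes, microglia, ensheathing and mesenchymal cells some of them differ from the numbers that the study's own text gives clusters of the same size. Among the astrocyte clusters, Astro2 was at 75732 CPM and Astro3 at 12776 CPM, although Astro3 held the astrocyte markers at 2311 CPM, second to Astro1. Among microglia, MicroG1 and MicroG2 were at 29316 and 28762 CPM and MicroG3 at 4674 CPM. Among ensheathing cells OEC3 stood at 33887 ± 12087 CPM against 69451 CPM or more in the other ensheathing clusters. Of the mitral and tufted cell clusters, the projection neurons of the bulb, n15-M/TC-1 was at 52883 CPM and n17-M/TC-3 at 19377 ± 2077 CPM.

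Meg3 was a neuronal RNA in these data, and its level peaked in n15-M/TC-1, 1 of 3 mitral and tufted clusters. In n15-M/TC-1 it reached 17256 ± 3318 CPM, with 14689 and 15737 CPM in control, 15371 and 15270 CPM in naris occluded and 19363 and 23105 CPM in trained libraries, and every cell of that cluster had a Meg3 UMI. All 6 libraries lay far above every other cluster. They held 8 and 16 cells of it in control, 17 and 6 in naris occluded and 23 and 20 in trained libraries, too few for a group test. The next level was 5518 ± 563 CPM in the periglomerular cluster n05-PGC-2, followed within the spread by n06-Transition at 5508 ± 854 CPM and n10-GC-4 at 5205 ± 836 CPM. The other mitral and tufted clusters lay lower, n16-M/TC-2 at 4466 ± 717 CPM and n17-M/TC-3 at 3908 ± 1855 CPM, although their summed mitral and tufted cell markers, at 1777 and 4328 CPM, were above the 1403 CPM of n15-M/TC-1. The adult-born immature neurons (n04-Immature) had 3244 ± 415 CPM. The low neuronal clusters were n14-GC-7 at 319 CPM, n13-AstrocyteLike at 247 CPM and n01-OSNs at 167 ± 49.7 CPM, which are also clusters where Malat1 was low.

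Outside neurons Meg3 was much lower, with a median of 99.6 CPM over the nonneuronal clusters against 3565 CPM over the neuronal clusters. The highest were the vessel wall cluster Mural2 at 721 ± 147 CPM, oligodendrocyte precursors (OPC) at 546 ± 102 CPM and Mural1 at 421 ± 142 CPM, and the lowest was OEC5 at 50.4 ± 16.3 CPM. RNA released from broken neurons enters droplets of other cells, so the neuron markers Snap25, Syt1 and Tubb3 were set beside these levels. They summed to 455 CPM in Mural2, 387 CPM in OPC and 249 CPM in Mural1, and to 214 CPM in OEC4, where Meg3 was at 52.7 CPM. In neurons the order varied, with Meg3 at 5518 against 2417 CPM of these markers in n05-PGC-2, 3908 against 4513 CPM in n17-M/TC-3 and 2577 against 4975 CPM in n12-GC-6, and the part of released RNA in the nonneuronal levels was not tested. Thinned to 500 UMIs per cell, Meg3 was seen in 24.2% of Mural2 cells and in 2.81% of OEC4 cells, whose unthinned shares were 43.4% and 10.7%.

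Snhg11 followed Meg3 closely, apart from the immature neurons. It also peaked in n15-M/TC-1, at 10929 ± 1978 CPM, and the libraries ran from 8257 CPM (naris occluded replicate 2) to 13224 CPM (trained replicate 2) with all groups overlapping. It came next in n08-PGC-3 at 3765 ± 582 CPM and n06-Transition at 3654 ± 712 CPM. Over the 40 clusters the correlation of the log2 levels of Meg3 and Snhg11 was 0.93, within the neuronal clusters 0.84 (n = 18) and within the nonneuronal clusters 0.76 (n = 22), all clusters sharing the same 6 libraries. In n04-Immature, Snhg11 was at 93.2 ± 27.3 CPM while Meg3 was at 3244 CPM. The libraries of that cluster had 138 and 69.2 CPM of Snhg11 in control, 88.1 and 69.2 CPM in naris occluded and 113 and 81.5 CPM in trained samples. Snhg11 was at 1009 ± 130 CPM in n02-PGC-1 and 855.1 ± 162 CPM in n03-GC-1, so the immature cluster lay about as low as oligodendrocytes (MyOligo, 93.1 CPM) and below every other neuronal cluster apart from n01-OSNs, at 83.5 CPM.

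Miat was measured by few molecules. The 90 cells of n15-M/TC-1 held 35 of its UMIs, at 218 ± 110 CPM, and n18-EPL-IN, the interneurons of the external plexiform layer, held 7 UMIs. The immature neurons held 281 of the 723 Miat UMIs, at 42.7 ± 5.36 CPM. Its level there was steady, with 45.5 and 49.96 CPM in control, 39.3 and 38.6 CPM in naris occluded and 46.4 and 36.2 CPM in trained libraries. These were also the neurons in which Snhg11 was low, at 93.2 CPM. Outside neurons Miat was seen in Mes2 at 23.9 ± 13.8 CPM (20 UMIs) and OPC at 15.5 ± 9.49 CPM (19 UMIs), each with 1 library at 0.

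Neat1 was mainly an RNA of nonneuronal cells. It was highest in macrophages at 842 ± 178 CPM, myelinating oligodendrocytes (MyOligo) at 778 ± 157 CPM and the mesenchymal cluster Mes2 at 728 ± 142 CPM, which did not differ beyond their spread, and then fell to 384 ± 65.0 CPM in MicroG1. Macrophages had 729 and 809 CPM in control, 947 and 924 CPM in naris occluded and 570 and 1073 CPM in trained libraries, so that the trained pair spanned the other groups. The other microglia had less, with MicroG2 at 91.8 CPM and MicroG3 at 25.2 CPM. The median over nonneuronal clusters was 146 CPM and over neuronal clusters 14.8 CPM. Oligodendrocyte precursors had 22.2 ± 11.6 CPM, far from the mature oligodendrocytes. The highest neuronal level was 93.8 ± 60.5 CPM in n15-M/TC-1, from 13 UMIs, and n06-Transition followed at 55.1 ± 8.22 CPM.

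The genes with cluster profiles most like each RNA were found by the correlation of log2(CPM + 1) over the 40 clusters, among 12823 genes. For Malat1 these were Gm42726 (r = 0.93), Xist (0.93), the RNA that silences the second X chromosome of females, and Pnisr (0.91), a splicing-associated protein. For Meg3 they were Mir124a-1hg (0.97), the host of the neuronal microRNA miR-124, the splicing regulator Celf3 (0.94) and Gdap1 (0.94). For Snhg11 they were the ubiquitin ligase Ube3a (0.94), an imprinted gene in neurons, then Meg3 (0.93) and Mir124a-1hg (0.93). Miat had Mast1 (0.82), Strbp (0.82) and Trp53bp1 (0.80), and Neat1 had Dnase1l1 (0.86), Ctdsp1 (0.84) and Syngr2 (0.83). Malat1 and Meg3 had a correlation of 0.23 over all clusters and 0.88 over the neuronal ones. Their rank correlation over the neuronal clusters was lower, at 0.44 (n = 18). These values describe 40 clusters that share libraries and depth.

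The other genes of the Meg3 locus were scarce. Dlk1, an inhibitor of Notch signalling, had 185 UMIs in all, Rtl1 had 11 and Dio3, which inactivates thyroid hormone, had 38, whereas the microRNA host Mirg had 1121 UMIs and like Meg3 peaked in n15-M/TC-1, at 209.7 CPM. Of the paraspeckle proteins, Sfpq, Pspc1, Tardbp, Hnrnph3 and Cpsf7 were highest in n15-M/TC-1, where Sfpq was at 660 CPM. The highest levels of these 5 were thus in neurons and not in the macrophages and oligodendrocytes where Neat1 was highest.

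In the clusters with a low level of Malat1, most cells had almost none of it. A cell was counted as having little Malat1 when it made up under 1% of its nonmitochondrial UMIs, a limit chosen after the data were seen. Of neuronal cells 6049 (27.8%) and of nonneuronal cells 8105 (28.0%) lay under it, and 8.45% and 9.29% had no Malat1 UMI at all. Between 0.5% and 2%, near the limit, lay 8.13% and 9.48% of cells. The share of such neuronal cells was 31.2% and 30.7% in control, 21.7% and 14.9% in naris occluded and 38.4% and 22.3% in trained libraries, and of nonneuronal cells 26.3% and 28.7%, 26.6% and 18.5%, and 37.0% and 32.6%. Naris occluded replicate 2 had the smallest share and trained replicate 1 the largest in both classes.

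Cells with little Malat1 made up nearly all of some clusters and few of others. They were 96.6% of n01-OSNs, 92.8% of n13-AstrocyteLike, 92.2% of n14-GC-7, 91.0% of MicroG3, 88.1% of red blood cells, 85.1% of n18-EPL-IN, 83.1% of Astro3, 78.1% of n17-M/TC-3, 74.6% of OEC3 and 68.0% of EC2. In contrast they were under 5% in n02-PGC-1, in n03-GC-1, in all clusters from n06-Transition to n12-GC-6, in n15-M/TC-1 and in Astro2, OEC5, MicroG1 and MicroG2. Several clusters held both kinds. In OEC3 the cells ran from no Malat1 at the 10th percentile to 11.6% of their nonmitochondrial UMIs at the 90th, with a median of 0.201%.

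**Figure D2:**
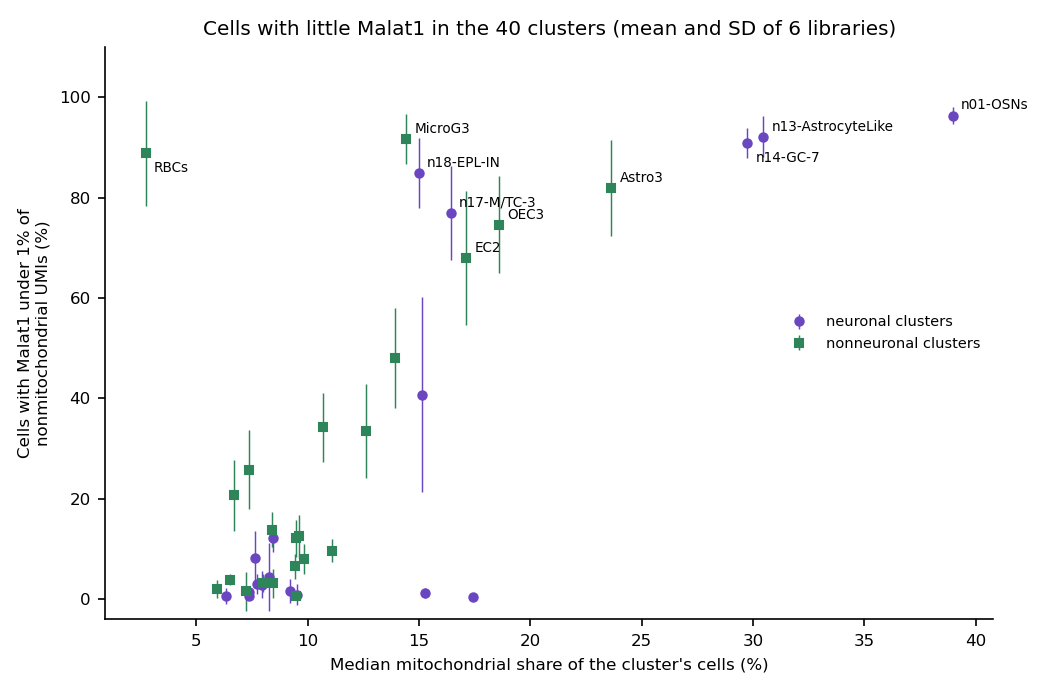
Share of cells with Malat1 under 1% of nonmitochondrial UMIs (y, mean and SD of 6 libraries) against the median mitochondrial share of the cells of each of the 40 clusters (x); circles are neuronal and squares nonneuronal clusters. Most clusters lie near the bottom, a set including n13-AstrocyteLike (92.1%, mean of libraries) and Astro3 (81.9%) lies near the top at high mitochondrial shares, and red blood cells (88.8%) lie at the top with a low one.

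These cells had fewer UMIs and more mitochondrial RNA. Their median depth was 701 UMIs in neuronal and 792 in nonneuronal clusters, against 1290 and 2024.5 in the other cells, and their median mitochondrial share was 29.7% and 18.7%, against 10.2% and 8.82%. A high mitochondrial share did not always come with little Malat1. The granule cell cluster n07-GC-2 had a median mitochondrial share of 17.4% and n06-Transition 15.2%, with 0.4% and 0.9% of cells under the limit, at median depths of 882 and 730 UMIs. Red blood cells, which in mammals lose their nucleus, lay under the limit with a mitochondrial share of 2.5% and a depth of 3955 UMIs. Across the neuronal clusters the rank correlation of the Malat1 level with the median mitochondrial share was -0.62 and with the median depth 0.54 (n = 18), and across the nonneuronal clusters 0.014 and 0.33 (n = 22).

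Meg3 was low in the same neurons. In clusters with at least 20 cells on both sides in every library, shares of the other RNAs were compared between cells with at least 1% and cells with under 1% Malat1, with Malat1 itself and the mitochondrial UMIs left out of the total to which CPM refers here. Since the limit was drawn after seeing the data, no test was made. In n04-Immature, Meg3 was at 3950 ± 465 CPM in 3452 cells with Malat1 and at 167 ± 73.1 CPM in 458 cells with little of it. The cells with Malat1 had 3975 and 3602 CPM in control, 4808 and 3609 in naris occluded and 3641 and 4064 in trained libraries, and the others between 77.6 and 295, so no library overlapped. In n17-M/TC-3 the levels were 7785 ± 1958 CPM in 203 cells and 430 ± 359 CPM in 724 cells, again without overlap, the highest of the low side being 1136 in naris occluded replicate 1. Snap25, a protein of synaptic vesicle release, gave a log2 ratio of -0.22 ± 0.45 in n04-Immature, above 0 in 3 of 6 libraries, and of 0.57 ± 0.46 in n17-M/TC-3, above 0 in 5 of 6. The ribosomal protein gene Rpl13 gave -0.53 ± 0.17 over both clusters. Cdhr1, a cadherin of mitral and tufted cells, went the other way in n17-M/TC-3, at 1657 ± 351 CPM in the cells with Malat1 and 3627 ± 494 CPM in the others, a log2 ratio of -1.14 ± 0.43, above 0 in 0 of 6 libraries. The sides of this cluster thus differed in a cell type marker as well, whose part in the Meg3 difference was not tested.

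Averaged over both clusters, Meg3 had the largest log2 ratio among all genes with enough counts, within the spread of the next gene. It was 4.54 ± 0.64 (SD, n = 6 libraries), place 1 of 5800 genes, and in cells of 500 to 1500 UMIs 4.51 ± 0.78, place 1 of 1766 genes. Kcnq1ot1 was next at 4.47 ± 1.48, itself a nuclear imprinted RNA, and Mir124a-1hg had 4.05 ± 1.02. In n04-Immature alone Kcnq1ot1, at 4.79, and Miat, at 4.75, lay above Meg3, at 4.66. Snhg11 was at 2.89 ± 1.08, place 44, and at place 26 in the depth-limited cells. In n17-M/TC-3 its level was 3654 ± 1061 CPM in cells with Malat1 and 302 ± 230 CPM in the others. In n04-Immature it was 111 ± 34.3 against 49.6 ± 40.7 CPM, a log2 ratio of 1.96 ± 2.17 with naris occluded replicate 2 on the other side of 0, at -0.49. Miat, with 307 UMIs, was at 3.46 ± 1.68, place 16. Of all genes, 5.07% had a log2 ratio over 2 and 27.8% one over 1, with a median of 0.53, and in the depth-limited cells 2.27% and 9.46%, with a median of -0.20. The required number of cells a side was not applied again in the depth-limited cells. In n17-M/TC-3 the cells with Malat1 had a median of 2199 UMIs, so most of them lay outside that limit. Xist, counted in the 3 female libraries, had a ratio of 4.45 ± 1.09.

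In nonneuronal cells Neat1 was the member with the largest difference. Over 10 clusters its log2 ratio was 3.05 ± 0.93, place 13 of 10937 genes, and 3.07 ± 0.53 in cells of 500 to 1500 UMIs, place 2 of 6016, where 1.58% and 0.515% of genes were over 2 and 26.3% and 6.3% over 1. In macrophages it was at 1158 ± 202 CPM in 377 cells with Malat1 and at 85.6 ± 85.3 CPM in 195 cells with little. The first had 1044 and 1180 CPM in control, 1324 and 1173 in naris occluded and 832 and 1397 in trained libraries, whereas the second reached at most 232 and was at 0 in control replicate 2 and trained replicate 2. In OEC4 Neat1 was at 118 ± 12.4 against 5.73 ± 8.91 CPM, and in OEC3 at 186 ± 32.3 against 12.9 ± 6.10. Where a side held 0 UMIs, the ratio depended on the added count. In OEC4 in control replicate 1, at 131.6 against 0 CPM, it was 7.16. The endothelial clusters were unlike each other, EC1 having 308 ± 50.1 against 316 ± 115 CPM and EC2 291 ± 51.9 against 80.9 ± 58.3 CPM, and in monocytes the levels were 380 ± 106 against 220 ± 90.7. Over the same 10 clusters Snap25 was higher in the cells with little Malat1, with a log2 ratio of -0.59 ± 0.34 and above 0 in 0 of 6 libraries. In macrophages it was at 182 ± 92.9 against 303 ± 125 CPM and in Mes1 at 143 ± 27.8 against 406 ± 84.2 CPM. The part of RNA from other cells in the Neat1 difference was not tested. Meg3 and Snhg11 had nonneuronal log2 ratios of 0.94 ± 0.53 and 0.83 ± 0.32, where the median of all genes was 0.67. In cells of 500 to 1500 UMIs they were at 1.07 ± 0.50 (place 326) and 0.95 ± 0.25 (place 435 of 6016), where the median was 0.11.

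**Figure D3:**
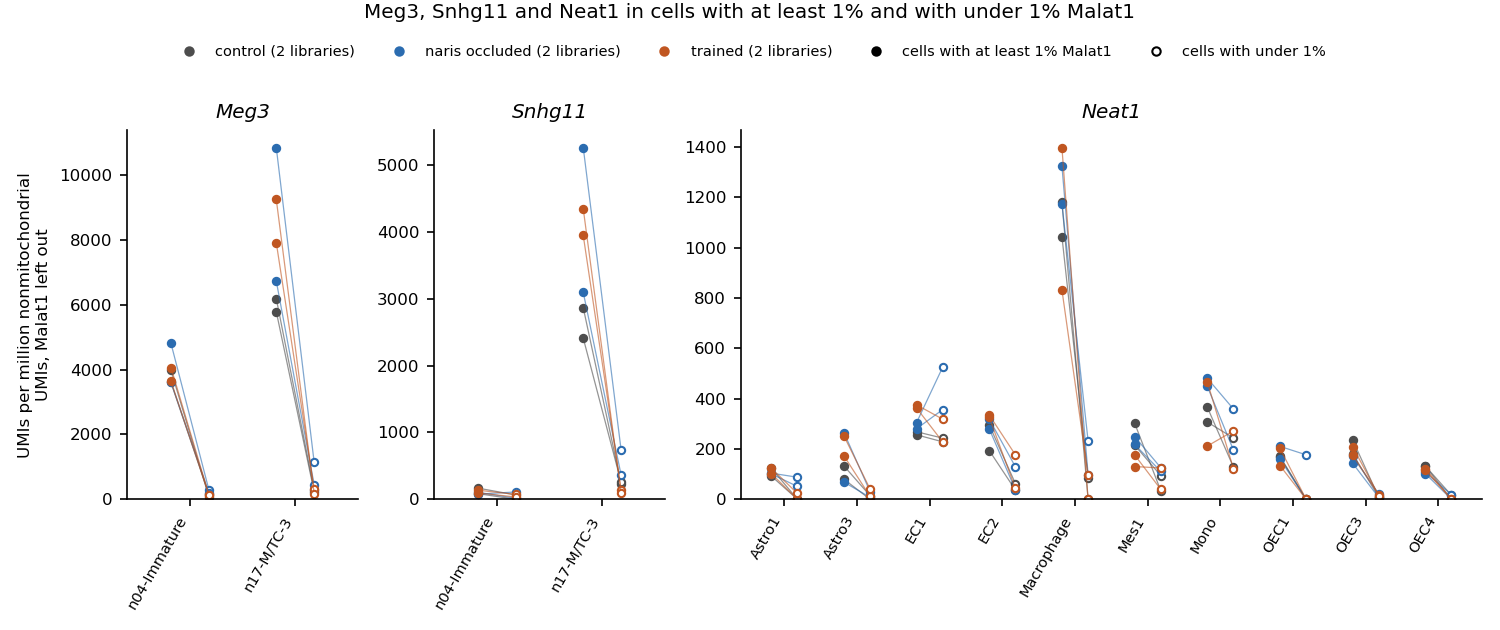
Meg3 and Snhg11 in the neuronal clusters n04-Immature and n17-M/TC-3, and Neat1 in 10 nonneuronal clusters, in CPM of the nonmitochondrial UMIs without Malat1; filled points are cells with at least 1% Malat1, open points cells with less, lines join the values of 1 library and colours give the group. Meg3 falls from 3950 to 167 in n04-Immature in the mean, Neat1 from 1158 to 85.6 in macrophages, and the Neat1 levels of EC1 overlap at 308 and 316.

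The messages of nuclear speckle and splicing proteins moved the same way by less. All 13 of the list were above 0 in both classes, as were 80.4% and 90.3% of all genes, with medians of 1.23 in neuronal and 0.90 in nonneuronal clusters, against all-gene medians of 0.53 and 0.67. In cells of 500 to 1500 UMIs their medians were 0.999 and 1.25, with all 12 counted above 0, against -0.20 and 0.11 for all genes, of which 38.1% and 59.6% were above 0. Son, a scaffold protein of speckles, had 1.48 ± 0.28 and 1.65 ± 0.22, and Srrm2 1.38 ± 0.11 and 1.03 ± 0.16. Of the paraspeckle proteins 10 of 10 and 11 of 11 were above 0, with medians of 0.68 and 0.56. In the depth-limited cells 6 of 7 and 7 of 9 were above 0, with medians of 0.61 and 0.33. The hosts of small nucleolar RNAs, a class that Snhg11 belongs to by name, had 2 of 4 and 5 of 5 above 0, with medians of 0.24 and 0.38, and in the depth-limited cells 0 of 1 and 2 of 5, with medians of -0.045 and -0.015. Of the other long noncoding RNAs of brain 5 of 6 and 7 of 7 were above 0, with medians of 2.05 and 1.201, and in the depth-limited cells 4 of 5 and 3 of 4, with medians of 1.33 and 0.68.

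The relation to the mitochondrial share was then measured within clusters, as the log2 ratio of each RNA's share of nonmitochondrial UMIs in cells with under 10% to that in cells with at least 20% mitochondrial UMIs, with levels in CPM of the nonmitochondrial UMIs. In nonneuronal clusters Malat1 was higher in the cells with little mitochondrial RNA by 3.42 ± 0.12 (SD, n = 6 libraries), with values of 3.42 and 3.22 in control, 3.51 and 3.47 in naris occluded and 3.54 and 3.36 in trained libraries. All 6 libraries lay close together. This rested on Astro1, where Malat1 was at 118687 ± 10187 against 19477 ± 4007 CPM, and on OEC3, at 127180 ± 22141 against 7123 ± 2310 CPM. Neat1 was also higher in all 6 libraries, by 1.02 ± 0.74, from 284 and 65 UMIs. Neat1 was at 132 ± 37.7 against 48.0 ± 22.9 CPM in OEC3, a ratio of 1.53 ± 0.85 and above 0 in 6 of 6 libraries, and at 99.4 ± 14.5 against 82.5 ± 50.6 CPM in Astro1, above 0 in 3 of 6. The exact two-sided sign-flip permutation test over 6 libraries gave p = 0.03125 for the means of Malat1 and of Neat1, the smallest it can give, and 0.0625 adjusted over the 10 tests. Meg3, at -0.81 ± 0.93, and Snhg11, at -0.40 ± 0.52, had the other sign, higher in 1 and 2 of 6 libraries (exact permutation p = 0.09375 and 0.15625). In cells of 500 to 1500 UMIs, where 1 cluster was left, Snhg11 turned sign to 0.70 ± 0.58 and Meg3 was at -0.92 ± 1.10.

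In neuronal clusters Malat1 had a ratio of 0.96 ± 0.49, Meg3 0.89 ± 0.63 and Snhg11 0.98 ± 0.56, each above 0 in 6 of 6 libraries (exact permutation p = 0.03125, adjusted 0.0625). In cells of 500 to 1500 UMIs, again in 1 cluster, they were 0.43 ± 0.20, 0.17 ± 0.37 and 0.56 ± 0.28. The 3 clusters behind these means differed from each other. In n17-M/TC-3 Malat1 was at 31736 ± 6933 CPM in cells with little mitochondrial RNA and 6190 ± 3609 CPM in those with much, and Meg3 at 6160 ± 1936 against 1801 ± 2017. In n04-Immature the order of Malat1 was the reverse in 5 of 6 libraries, at 42009 ± 4119 against 49525 ± 11432 CPM, and Meg3 hardly moved, at 3555 ± 415 against 3407 ± 858. In n06-Transition Malat1 was at 79469 against 55957 CPM. Miat and Neat1, from 15 and 23 UMIs on the high mitochondrial side, had ratios of -0.11 ± 0.91 and -0.32 ± 1.02 and turned sign with the constant added to their counts, to 0.40 and 1.01. Cells on the low mitochondrial side were deeper, with medians of 1862 against 757 UMIs in n04-Immature and 2109.5 against 967.5 in Astro1.

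**Figure D4:**
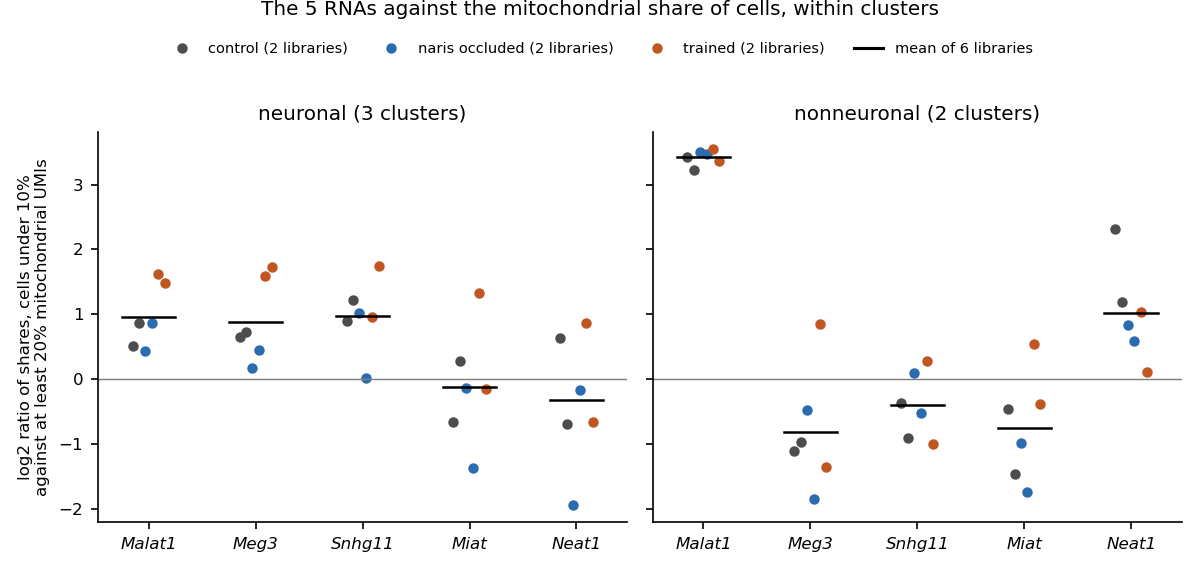
Log2 ratio of the share of nonmitochondrial UMIs of each RNA in cells with under 10% against cells with at least 20% mitochondrial UMIs (y), within 3 neuronal clusters and 2 nonneuronal clusters; points are libraries coloured by group and lines the mean of 6 libraries. Malat1 lies near 3.42 in all nonneuronal libraries and between 0.44 and 1.62 in neuronal ones, while Meg3 is above 0 in all neuronal libraries and above 0 in 1 nonneuronal library.

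With depth, Malat1 moved in opposite directions in the clusters that could be compared, again as a share of nonmitochondrial UMIs. These were 2 neuronal clusters, n03-GC-1 and n04-Immature, and 4 nonneuronal clusters. In nonneuronal clusters cells with at least 2000 UMIs had a higher share of Malat1 than cells with under 1000, by a log2 ratio of 0.73 ± 0.32 and in 6 of 6 libraries, and in neuronal clusters a lower one, by -0.25 ± 0.18 and in 6 of 6 libraries. In Astro1 the levels were 97520 ± 16881 against 47498 ± 13296 CPM, and in n03-GC-1 79268 ± 9709 against 100035 ± 15023. Split at the median depth of each cluster and library instead, over more clusters, the neuronal ratio was 0.29. Meg3 had a neuronal depth ratio of 0.10 ± 0.21, with 3 libraries on each side of 0. In nonneuronal clusters Meg3 was at -0.71 ± 0.43 and Snhg11 at -0.80 ± 0.13, each above 0 in 0 of 6 libraries. Neat1 was there at -0.48 ± 0.55, above 0 in 1 of 6, and Miat, from 28 and 1 UMIs, at -2.60 ± 0.54. At a median split, given below, the nonneuronal ratios of Meg3, Snhg11 and Miat lay nearer to 0.

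Between the groups, the question was whether odour deprivation or odour training went with a different level of these RNAs within a cell type. Counts were summed per library in each of 34 clusters with at least 20 cells in every library, and all genes were tested with edgeR's quasi-likelihood test and Benjamini-Hochberg adjustment at 0.05. Malat1 was tested in 34 clusters, Meg3 in 33, Snhg11 in 32, Neat1 in 21 and Miat in 1, so 121 tests of the 5 RNAs stood in each comparison. The comparisons of naris occluded and of trained with control share the control libraries. DESeq2 called none of the 121 tests in any comparison, with 7, 12 and 7 at an unadjusted p under 0.05 in naris occluded against control, trained against control and trained against naris occluded, where edgeR had 22, 33 and 31 against 4.78%, 5.74% and 7.26% of all tests, so each call of the 5 RNAs below is lost with that tool.

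Malat1 was lower in trained than in control libraries across most clusters. Over the whole libraries it was at 53459 and 58115 CPM in control, 53558 and 56847 CPM in naris occluded and 42554 and 47532 CPM in trained samples, so the trained pair was the lowest, and the same held as a share of nonmitochondrial UMIs, at 49136 and 53117 CPM against 59622 or more in the other libraries. Within clusters its log2 fold change was below 0 in 31 of 34, with a median of -0.26, while the medians of all genes lay between -0.03 and 0.01. Of 624 genes tested in all 34 clusters, 2.88% lay on one side of 0 in at least 31 of them and 3.04% had a median at least as far from 0. The unadjusted p was under 0.05 in 25 clusters, each with a lower level. Malat1 was called lower in 5 clusters, of 5 calls among the 121 tests, where 0.0931% of all tests were called and 0.0318% called lower.

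The 5 clusters were ensheathing cells, astrocytes and periglomerular neurons. In OEC3, values after scaling were 40759 and 45955 CPM in control, 30753 and 50147 in naris occluded and 24175 and 20466 in trained libraries, a log2 fold change of -0.96 ± 0.12 (SE; edgeR adjusted p = 1.18e-06). The trained pair lay below all 4 others. In Astro1 the values were 95883 and 99324 CPM in control and 68365 and 78634 in trained libraries, a change of -0.41 ± 0.058 (edgeR adjusted p = 0.00132), without overlap. Astro3 had -1.13 ± 0.22, OEC4 -0.32 ± 0.061 and n02-PGC-1 -0.26 ± 0.045, with edgeR adjusted p of 0.0267, 0.00488 and 0.0103. In the fit with the replicate number, and so the sex of the pools, as a block, Malat1 was called in 2 clusters, OEC3 and Astro3 (edgeR adjusted p = 1.36e-07 and 0.0443), and the calls in Astro1, OEC4 and n02-PGC-1 ended at changes of -0.41, -0.32 and -0.26 (edgeR adjusted p = 0.131, 0.606 and 0.905). In n04-Immature the levels were 38845 and 43475 CPM in control and 35637 and 34989 in trained libraries, and the change of -0.22 was not called (edgeR adjusted p = 0.939). The calls in OEC4, at -0.39 (edgeR adjusted p = 0.210) and -0.25 (0.897), ended without either control replicate, that in n02-PGC-1, at -0.19 (0.669), without control replicate 2, and that in Astro3, at -0.98 (0.163), without control replicate 1. The number of member calls was 3 without control replicate 2, 13 and 14 without naris occluded replicates 1 and 2, and 10 and 15 without trained replicates 1 and 2.

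**Figure D5:**
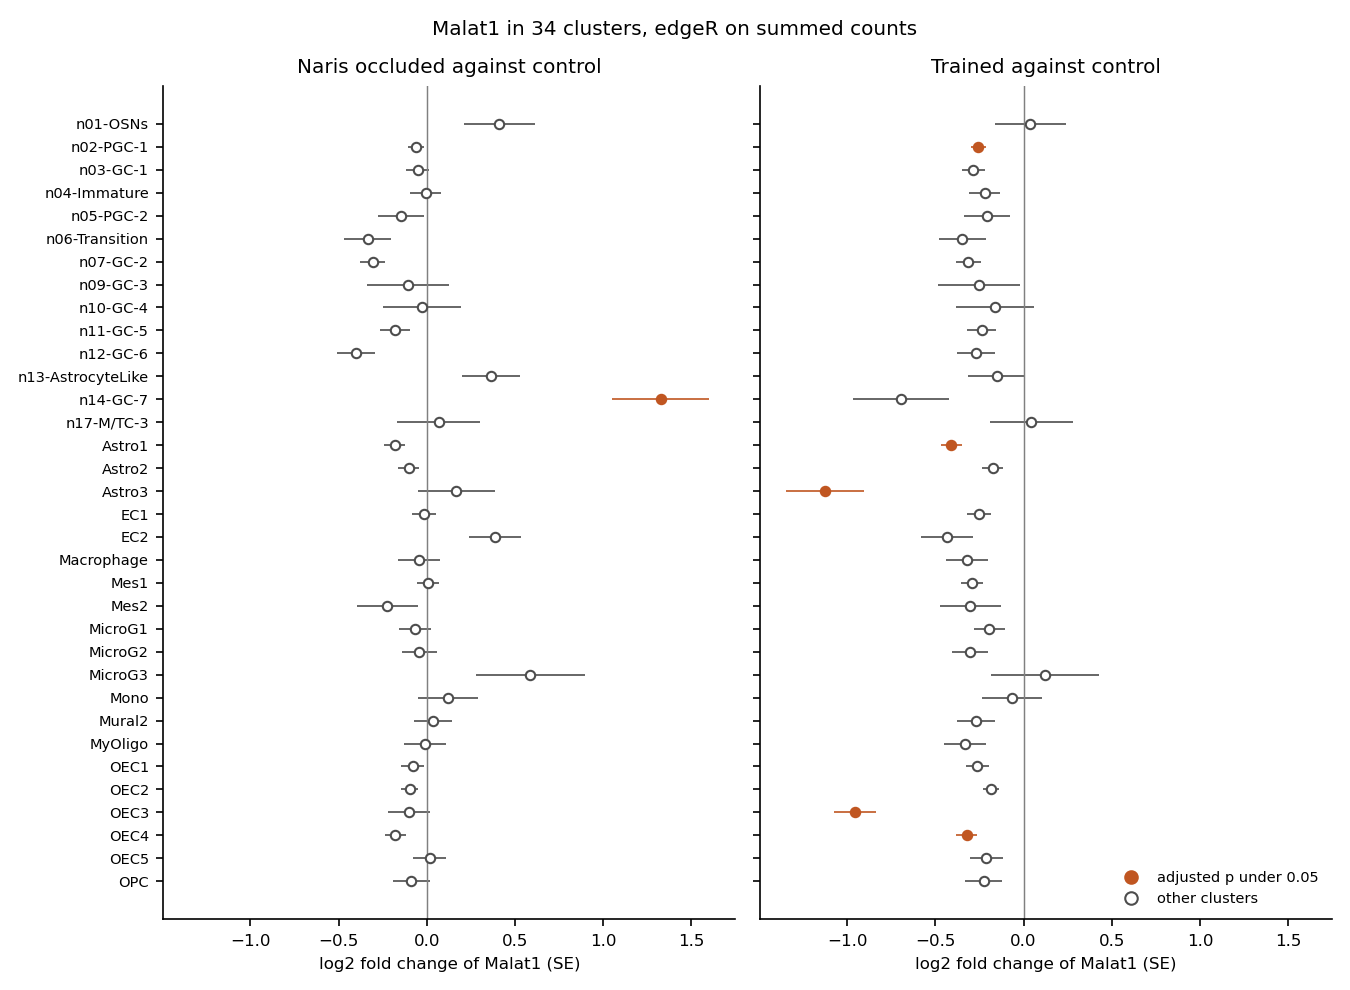
Log2 fold change of Malat1 (x, with its SE) in each of 34 clusters (y), naris occluded against control on the left and trained against control on the right; filled points passed an adjusted p of 0.05 in edgeR and open points did not. Trained libraries are below control in 31 of 34 clusters, with 5 filled, and naris occluded libraries are below in 23 and above in 11, with n14-GC-7 filled at 1.33.

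In the clusters with the largest falls, the share of cells with little Malat1 was also compared. It was highest in the trained pair in OEC3, while trained and control libraries overlapped in Astro3. In OEC3 it was 70.2% and 70.9% in control, 77.6% and 59.8% in naris occluded and 81.7% and 87.1% in trained libraries, and in Astro3 78.8% and 88.5%, 83.2% and 64%, and 87.1% and 89.7%. Among cells with at least 1% Malat1 alone, the fall from control to trained was -0.21 in OEC3 (edgeR adjusted p = 0.122), -0.77 in Astro3 (0.550) and -0.26 in OEC4 (0.0933), none of them called. In Astro1 it was -0.39 (edgeR adjusted p = 0.00229) and in n02-PGC-1 -0.26 (0.0107) in those cells, and both were called, with 28 of 29 clusters below 0 and a median of -0.24. These cells were kept by their own level of Malat1, so the share of cells with little Malat1 and the level within cells cannot be told apart from these values. The mitochondrial share was highest in trained replicate 1. With only cells under 20% mitochondrial UMIs the median was -0.26, below 0 in 29 of 31 clusters.

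Trained libraries were also below naris occluded libraries in Malat1, in 33 of 34 clusters, with a median of -0.21. Of the 624 genes tested in all clusters, 2.72% lay on one side of 0 at least as often and 9.94% had a median at least as far from 0. There were 4 calls, all of Malat1 and all lower, where 0.178% of all tests were called and 0.0607% called lower. They were OEC3 at -0.86 ± 0.12, n14-GC-7 at -2.02 ± 0.28, Astro3 at -1.29 ± 0.22 and EC2 at -0.82 ± 0.15 (edgeR adjusted p = 1.08e-05, 0.000398, 0.00249 and 0.000726). In n14-GC-7 the values were 8769 and 24551 CPM in naris occluded and 4422 and 3605 in trained libraries, so that naris occluded replicate 2 stood far above the rest. Without that library the changes were -1.08 in n14-GC-7, -0.46 in OEC3 and -0.54 in Astro3, the last no longer called (edgeR adjusted p = 0.787), and EC2 was at -0.47 without trained replicate 1 and -1.30 without trained replicate 2. In cells with at least 1% Malat1 alone, no member was called, with 21 of 104 tests at an unadjusted p under 0.05, and OEC3, Astro3 and EC2 were at -0.05, -0.20 and -0.05. The number of member calls was 10 and 8 without naris occluded replicates 1 and 2 and 8 and 15 without trained replicates 1 and 2.

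Naris occlusion went with 3 member calls, all higher than control, where 0.0624% of all tests were called, 0.0214% higher and 0.041% lower. Malat1 was below control in 23 of 34 clusters with a median of -0.05, and 39.6% of the 624 genes lay on one side of 0 at least as often and 54.5% had a median at least as far from 0. In the mitral and tufted cluster n17-M/TC-3, Meg3 was at 2734 and 3028 CPM in control, 7730 and 4572 in naris occluded and 3126 and 5101 in trained libraries, a change of 1.10 ± 0.25 (edgeR adjusted p = 0.0280). Snhg11 in the same cluster was at 1418 and 1251 CPM in control, 3791 and 2150 in naris occluded and 1549 and 2403 in trained libraries, a change of 1.16 ± 0.24 (edgeR adjusted p = 0.0204). Both naris occluded libraries lay above both control libraries, and trained replicate 2 lay above naris occluded replicate 2. Cells with little Malat1 made up 83.1% and 82.9% of this cluster in control and 65.5% and 65.3% in naris occluded libraries. Among its cells with at least 1% Malat1 the changes were 0.53 for Meg3 and 0.64 for Snhg11, and neither was called (edgeR adjusted p = 0.998 and 0.899). Without naris occluded replicate 1 they were 0.65 and 0.67 (edgeR adjusted p = 0.364 and 0.338), the call of Meg3 ended without either control replicate, at 1.03 and 1.17, and that of Snhg11 without control replicate 2, at 1.07. With only cells of at least 1000 UMIs the changes were 0.90 and 0.97 (edgeR adjusted p = 0.223 and 0.199), and with only cells under 20% mitochondrial UMIs 0.97 and 1.06 (edgeR adjusted p = 0.0652 and 0.0549), and no member was called under either limit, with 16 of 97 and 17 of 110 tests at an unadjusted p under 0.05. The third call was Malat1 in n14-GC-7, at 1.33 ± 0.27 (edgeR adjusted p = 0.0441), which was 0.40 without naris occluded replicate 2, and this cluster held too few cells to be tested under those limits. The number of member calls was 1 without control replicate 2, 5 and 8 without naris occluded replicates 1 and 2, and 9 without either trained replicate.

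Neat1 and Miat had no call in any comparison with edgeR or DESeq2. Neat1 had 1, 5 and 2 of 21 tests at an unadjusted edgeR p under 0.05, and in EC1 the change from control to trained was 0.49 (edgeR adjusted p = 0.217). Miat, tested in n04-Immature, was at 46.1 and 51.4 CPM in control, 38.7 and 39.7 in naris occluded and 47.4 and 36.7 in trained libraries after scaling, with no unadjusted p under 0.05. Meg3 and Snhg11 had no call in trained against control, with 2 of 33 and 1 of 32 tests at an unadjusted p under 0.05.

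Of the lists around these RNAs few genes were called. In the Dlk1-Dio3 locus 3 genes could be tested, in 40 tests, and the call of Meg3 in n17-M/TC-3 was the only one. None of 284 tests of the 11 paraspeckle proteins was called in any comparison by edgeR or DESeq2, with 12, 30 and 29 at an unadjusted edgeR p under 0.05. None of 118 tests of the 5 other hosts of small nucleolar RNAs was called, with 4, 6 and 11. The 405 tests of speckle and splicing proteins had 16, 43 and 42. Of all tests 4.78%, 5.74% and 7.26% were at such a p, and edgeR called 0.0624%, 0.0931% and 0.178%. Among 405 tests of speckle and splicing proteins, Srsf3, a splicing factor, was called higher in trained libraries in OEC4, by 0.66 ± 0.14 against control (edgeR adjusted p = 0.0176) and 0.73 ± 0.13 against naris occluded (0.00416), and in OEC2 by 0.80 ± 0.16 against naris occluded (0.0373). The first was 0.42 without control replicate 2 (edgeR adjusted p = 1.00), 0.63 without trained replicate 2 (0.0510) and 1.00 without control replicate 1, and the change in OEC2 was 0.66 without naris occluded replicate 2 (0.208) and 0.67 without trained replicate 2 (0.202). With the replicate block the change in OEC2 was 0.79 (edgeR adjusted p = 0.0803). Among 110 tests of other long noncoding RNAs, Rmst, which takes part in neuronal differentiation, was called higher in Astro1 in trained libraries, by 1.505 ± 0.21 against control (edgeR adjusted p = 0.00123) and 1.41 ± 0.20 against naris occluded (0.00172). Without control replicate 2 the change of Rmst against control was 1.37 (edgeR adjusted p = 0.0923). Of these changes, DESeq2 called the change of Rmst against control. The medians of the lists lay between -0.11 and 0.18, the largest being that of the other long noncoding RNAs in trained against control.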

How the data were processed

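The 6 libraries were made with Chromium 3′ chemistry, version v2. The authors obtained UMI counts of each gene and barcode from Cell Ranger 2.0.0 and deposited these counts without normalization; the submitters' processing notes also name Seurat 2.2.1 and build mm10. The methods keep cells with over 200 genes and remove doublets. The mitochondrial fraction, library and cluster of each cell were used as deposited. In both trained libraries the prefixes of the cell names disagree with the deposited library assignment, which was used.

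Members and gene lists were chosen with earlier results of these data known. Levels are counts summed per cluster and library, per 1000000; no correction for free RNA was made. Groups were compared with edgeR 4.0.16 (R 4.3.3; quasi-likelihood test, TMM factors, filterByExpr, all 6 libraries in 1 fit per cluster, Benjamini-Hochberg over all genes of the cluster), with DESeq2 1.42.0 as an alternative. An exact permutation of 2 libraries against 2 cannot give a p under 0.333, so none was run. The mitochondrial and depth ratios used 0.5 added UMIs. The ratios between cells with at least 1% and under 1% Malat1 used an added count in proportion to the UMI totals of the sides. All used clusters with at least 20 cells a side in every library. Tests of the mitochondrial ratios were adjusted over 10, since Rian has no row. Red blood cells, Mural1, n08-PGC-3, n18-EPL-IN, n16-M/TC-2 and n15-M/TC-1 held too few cells for group tests. On simulated data, genes doubled or halved in trained libraries were called in 55.8% (n04-Immature), 46.6% (n07-GC-2), 56.6% (Astro1) and 25.8% (OPC) of cases. Among the unchanged genes there were 11, 5, 10 and 1 false calls in the same clusters. Named genes are the members, the 3 genes most like each in cluster profile, at most 2 called genes per list and direction, and genes of the cell comparisons chosen after their values were seen. Other depths, filters, size factors, splits and left-out libraries were tried. Some genes of the lists are not reported here.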

Additional observations from a re-analysis of the deposited data

Results flagged for a closer look

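The Malat1 depth ratio is the log2 ratio of its share in cells with at least 2000 to that in cells with under 1000 UMIs. It was -0.25 over 2 neuronal clusters, below 0 in 6 of 6 libraries. Over 4 nonneuronal clusters it was 0.73, above 0 in 6 of 6 libraries. The difference between the classes was not tested, and the neuronal sign turned at a median split.

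Signal was also present in cells that no comparison used. The 755 annotated neurons outside the 18 neuronal clusters, with a median of 2213 UMIs, had 49582 CPM of Malat1, 5064 CPM of Meg3, 3031 CPM of Snhg11, 34.3 CPM of Miat and 174 CPM of Neat1. The 1123 barcodes in neither annotation, with a median of 2327 UMIs, had 57639 CPM of Malat1, 1905 CPM of Meg3, 1045 CPM of Snhg11, 13.2 CPM of Miat and 90.4 CPM of Neat1. In both sets every value was above 1.24 CPM or 0.993 CPM, the level that 3 UMIs would give.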

How the results depend on the processing

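Over all alternatives, 192 values answering a comparison were counted as kept, 35 as moved, 7 as newly passing the threshold and 14 as turned in sign. For mitochondrial ratios, kept meant the same sign and side of the threshold. For depth ratios, which had no threshold, it meant a change under the SD. For numbers of member calls it meant a change of at most 1.5-fold. Not every change of sign of a depth ratio was counted as turned. With a library left out, a depth ratio could not move by as much as its SD, so it was always counted as kept. A mitochondrial ratio could not then pass the threshold, so it could only be kept or turn in sign. The number kept includes these outcomes, which were partly fixed in advance. Of the values of single genes 197 were kept, 66 calls were lost and none turned sign. The calls rest on 2 pools per group and edgeR. Numbers of member calls were 0 with DESeq2 in naris occluded against control, trained against control and trained against naris occluded, where DESeq2 called 26, 25 and 53 of all tests and edgeR 108, 161 and 308. Naris occluded against control had 0 with cells of at least 1000 UMIs, 0 with cells under 20% mitochondrial UMIs, 0 with cells of at least 1% Malat1 and 5 with the 4 libraries compared, and from 1 to 9 with a library left out. Trained against control had 12 with no filter on low counts, 3 with cells of at least 1% Malat1 and from 3 to 15 with a library left out. Trained against naris occluded had 13 with no filter, 1 with at least 1000 UMIs, 2 under 20% mitochondrial UMIs, 0 with at least 1% Malat1 and from 5 to 15 with a library left out. The cause of these differences was not tested.

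Over all genes, the calls in the same order were 280, 462 and 722 with no filter; 68 in the first with at least 1% Malat1; and 202 with at least 1000 UMIs and 156 with the 4 libraries compared in the last. With a library left out they ran from 136 to 337, 79 to 665 and 299 to 1244.

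Replicate numbers give the sex of the pool. Deviations of same-numbered libraries from their group means had median correlations over 34 clusters of 0.098, 0.098 and 0.064, so the numbers were not shown to pair the libraries. With the replicate block, member calls were 3, 2 and 4 and all calls 176, 248 and 516; with the trained numbers of the cell names in the block, trained against control had 8 member calls.

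For the mitochondrial ratios, a median split gave 0.24 for Neat1 in neuronal clusters. Cells of 500 to 1500 UMIs gave 0.73 for Miat and 0.16 for Neat1 in neuronal clusters and 0.70 for Snhg11 and 0.91 for Miat in nonneuronal ones. Shares of all UMIs gave 0.22 for Miat and 0.013 for Neat1 in neuronal clusters. With clusters not held apart, neuronal Malat1 was 1.36, Meg3 0.98 and Miat 1.17, and nonneuronal Malat1 2.76, Meg3 -0.51, Snhg11 -0.68, Miat -1.70 and Neat1 1.37, all but that of Miat in neurons at an adjusted exact permutation p under 0.05. An added count in proportion to totals, chosen after seeing the data, gave 0.40 for Miat and 1.01 for Neat1 in neuronal clusters. Leaving out a library gave from -0.40 to 0.14 for Miat and from -0.56 to 9.7e-05 for Neat1 in neuronal clusters. With 5 libraries the smallest exact p is 0.0625.

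For the depth ratios, a median split gave 0.29 for neuronal Malat1 and, in nonneuronal clusters, 0.40 for Malat1, -0.028 for Meg3, -0.087 for Snhg11 and -0.84 for Miat. The proportional added count gave -0.087 for Meg3, -0.41 for Snhg11 and 0.78 for Miat in nonneuronal clusters, Miat there resting on 28 and 1 UMIs.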

Other observations

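Some uncharacterised transcripts were also much lower in cells with little Malat1, in neuronal and in nonneuronal clusters. Gm26699 had a log2 ratio of 4.25 ± 1.43 (SD, n = 6 libraries) in neuronal clusters, place 3 of 5800 genes, and of 4.22 ± 0.53 in nonneuronal clusters, place 1 of 10937. Gm42726, the gene nearest to Malat1 in cluster profile, had 3.81 ± 1.12 and 3.96 ± 0.43, and Gm26724 had 4.19 ± 0.97 and 3.35 ± 0.52. Pabpn1, a nuclear poly(A) binding protein, had 3.24 ± 0.35 in nonneuronal clusters, and Ttc14 had 3.34 ± 1.01 and 2.67 ± 0.35 in cells of 500 to 1500 UMIs. Each was above 0 in 6 of 6 libraries. These genes were chosen after their values were seen, and no test was made.

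Other long noncoding RNAs of the bulb had their highest levels in different clusters. Dlx6os1, the antisense partner of an interneuron transcription factor gene, was highest in n04-Immature at 556 CPM, where C130071C03Rik was also highest at 285 CPM. Pantr1 peaked in n16-M/TC-2 at 434 CPM, Rmst in Astro2 at 150.4 CPM and Ftx, a regulator of Xist, in n06-Transition at 164 CPM. Of the hosts of small nucleolar RNAs, Snhg20 was highest in n15-M/TC-1 at 520 CPM like Snhg11, and Snhg18 in OEC4 at 259 CPM. How strand was used in counting was not stated, and whether reads of Dlx6os1 and of its partner were kept apart was not tested.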
